A study of Bos taurus with 12 samples.

Results

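The genes described are 10 members of the NF-kB system in bovine blood: the subunits NFKB1, NFKB2, REL, RELA and RELB, the inhibitors NFKBIA, NFKBIE, NFKBIZ and TNFAIP3, and the ubiquitin ligase BIRC3. NFKBIZ, a nuclear cofactor that supports inflammatory genes, is grouped with the inhibitors here. The 10 genes were chosen by gene name, with earlier results of these data known. Each of the 10 was found among the 27429 genes of the count table and was counted in all 12 libraries. Blood was drawn from the jugular vein of female Holstein dairy cows on day 7 after calving, 6 of them in the control group and 6 given a parenteral trace element (mineral) supplement, meaning one not given by mouth, in the transition period around calving. There is 1 library for each cow, and the cows differ by treatment alone in the labels: breed, sex, day and material are shared, while ages, the elements, their dose and the day of supplementation are not given there. Total counts ran from 6778640 to 16851541 in supplemented and from 6783852 to 11307619 in control libraries. The labels call the material white blood cells, and PTPRC, CD3E, MS4A1, CSF3R and CD14, which mark leukocytes, T cells, B cells, granulocytes and monocytes, each had at least 199 counts in every library. Levels differed widely between cows for some of these: CSF3R ran from 45.8 to 4959 CPM (counts scaled to library size) and CD14 from 16.4 to 382 CPM.

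NF-kB is a family of dimeric transcription factors. In resting leukocytes the dimers are held in the cytoplasm by inhibitors of the IkB type, and signals from tumour necrosis factor, interleukin 1, Toll-like receptors or antigen receptors activate the IkB kinase complex, which marks IkB for destruction and frees the dimers. Freed dimers switch on inflammatory and survival genes, and among those genes are their own inhibitors, so that the transcript level of NFKBIA or TNFAIP3 is commonly read as a trace of recent signalling in studies of human and mouse cells. A second branch, through CD40, BAFF and lymphotoxin receptors, processes the NFKB2 protein and acts through RELB, and it is best known from B cells.

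Across the 12 cows the inhibitors spread far more widely than the subunits and BIRC3. The 5 subunits differed by 1.65-fold (NFKB1) to 3.03-fold (RELB) between the highest and the lowest cow, and BIRC3 by 1.89-fold. The 4 inhibitors differed by 7.37-fold (NFKBIE), 15.3-fold (NFKBIA), 27.2-fold (NFKBIZ) and 45.4-fold (TNFAIP3). Set against the 11990 genes past a mean of 10 counts, the standard deviation of log2 CPM (read counts scaled to the size of the library, after TMM normalisation) of the subunits was larger than that of 7.86% (NFKB1) to 47.8% (RELB) of genes. The corresponding share was 79.1% for NFKBIE, 91.0% for NFKBIA, 95.9% for NFKBIZ and 96.4% for TNFAIP3. The levels of supplemented and control cows overlapped for each of the 10 genes. The share of all genes that overlap in this way was not computed, so the overlap sets these genes apart from no others.

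**Figure D1:**
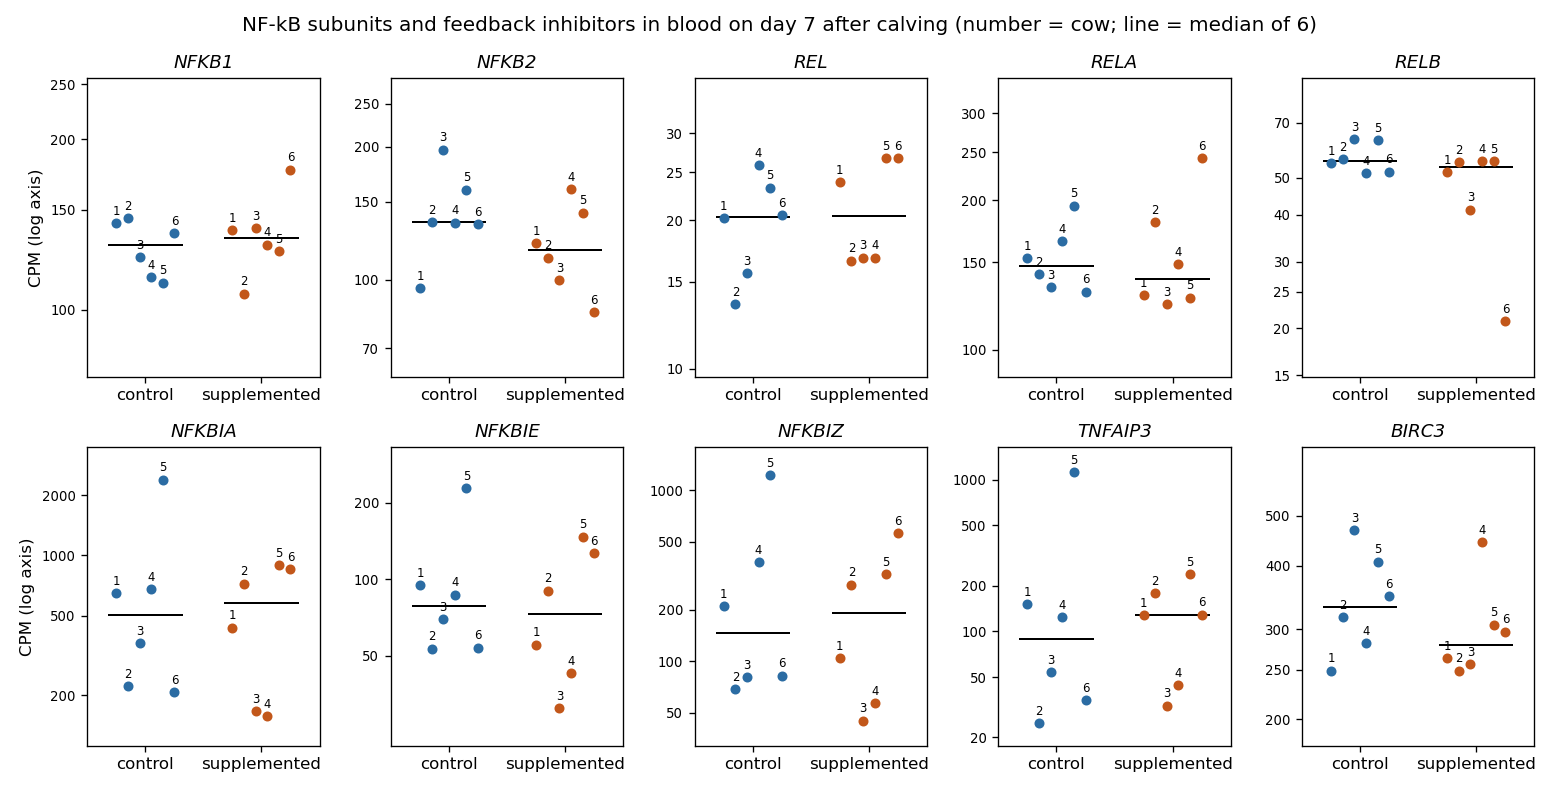
CPM of each gene (log axis, scaled for each panel) in 6 control and 6 supplemented cows, with the cow's number at its point and a line at the median of 6. Control cow 5 is the highest point for NFKBIA (2399 CPM), NFKBIE, NFKBIZ and TNFAIP3 (1125 CPM), and supplemented cow 6 is the lowest for RELB (20.9 CPM).

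Of the subunits, RELA (p65), the main transactivating partner of the classical dimer, ranged from 123 to 243 CPM with a median of 139 CPM in supplemented cows, and from 131 to 195 CPM with a median of 148 CPM in controls. The highest RELA level was that of supplemented cow 6 and the next that of control cow 5. NFKB1, which encodes p105 and its product p50, ranged from 107 to 177 CPM in supplemented cows (median 134 CPM) and from 112 to 145 CPM in controls (median 130 CPM), again with supplemented cow 6 on top. The ranges of both genes lie largely on each other in the 2 groups. REL (c-Rel), a subunit of lymphocytes and myeloid cells, had the fewest reads of the 10 genes, 103 to 411 counts per library. REL stood at 16.6 to 26.7 CPM in supplemented cows (median 20.3 CPM) and at 13.5 to 25.8 CPM in controls (median 20.3 CPM).

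The subunits of the second branch had their lowest value in the same cow. RELB ranged from 20.9 to 55.4 CPM in supplemented cows (median 53.3 CPM) and from 51.4 to 63.3 CPM in controls (median 55.4 CPM). The value of 20.9 CPM belongs to supplemented cow 6, and the other 5 supplemented cows held 41.3 to 55.4 CPM. NFKB2, which encodes p100 and its product p52, ranged from 84.6 CPM in that same cow to 160 CPM in supplemented cows (median 117 CPM), and from 95.8 to 197 CPM in controls (median 135 CPM). Control cow 3 had the highest level of both genes. BIRC3 (cIAP2), a ubiquitin ligase that is itself an NF-kB target and, with TRAF3, keeps the second branch in check, ranged from 249 to 445 CPM in supplemented cows (median 280.2 CPM) and from 249 to 470 CPM in controls (median 333 CPM). Supplemented cow 4, at 445 CPM, stood apart from the next supplemented cow at 306 CPM.

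The inhibitors had 1 extreme cow in common. NFKBIA (IkB alpha), which strips dimers from DNA and returns them to the cytoplasm, ranged from 156 to 895 CPM in supplemented cows (median 579 CPM) and from 207 to 2399 CPM in controls (median 504 CPM). The 2399 CPM of control cow 5 was 2.68 times the next highest value of any cow, and the other 5 control cows reached at most 676 CPM. NFKBIE (IkB epsilon), a slower IkB protein, ranged from 31.0 to 147 CPM in supplemented cows (median 72.7 CPM) and from 53.2 to 228 CPM in controls (median 78.4 CPM). NFKBIZ (IkB zeta), an inducible nuclear cofactor that supports secondary inflammatory genes, ranged from 45.2 to 562 CPM in supplemented cows (median 192 CPM) and from 68.8 to 1228 CPM in controls (median 146 CPM). TNFAIP3 (A20), which removes activating ubiquitin chains upstream of the kinase complex, ranged from 32.5 to 239 CPM in supplemented cows (median 129 CPM) and from 24.8 to 1125 CPM in controls (median 89.0 CPM). Control cow 5 was highest for 4 of 4 inhibitors and for 0 of 5 subunits, while 8.16% of the genes tested were highest in this cow.

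Below that cow the order was shared as well. Supplemented cows 3 and 4 and control cows 2, 3 and 6 were the 5 lowest cows for NFKBIA, for NFKBIZ and for TNFAIP3, and 4 of them were among the 5 lowest for NFKBIE. Low cows therefore came from both groups, 2 supplemented and 3 control. Supplemented cow 5 was the second highest cow for NFKBIA (895 CPM), NFKBIE (147 CPM) and TNFAIP3 (239 CPM), and supplemented cow 6 was the second highest for NFKBIZ (562 CPM).

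The treatment comparison asked whether the supplement was followed by a difference on day 7. Of the 10 genes, 0 passed edgeR's quasi-likelihood test (adjusted p = 0.999 for each, over all 11990 genes), where 0% of all genes were called. An unadjusted p under 0.05 was found for 0 of 10 genes, against 1.59% of all genes (191 genes). By adjusted p, DESeq2 called 2 of all genes and limma-voom 0. The log2 fold change was 0.08 ± 0.13 (SE) for NFKB1, 0.10 ± 0.20 for REL and 0.05 ± 0.19 for RELA. It was -0.25 ± 0.19 for NFKB2, -0.28 ± 0.21 for RELB and -0.19 ± 0.19 for BIRC3. The signs of NFKB1 and RELA turned with the scaling: without a scaling factor the values were -0.0079 and -0.050, and with upper-quartile scaling that of RELA was -0.0016. These standard errors of 0.13 to 0.21 contrast with those of 0.45 to 0.89 for the inhibitors, whose estimates were -0.48 ± 0.65 for NFKBIA, -0.25 ± 0.45 for NFKBIE, -0.58 ± 0.82 for NFKBIZ and -1.01 ± 0.89 for TNFAIP3. With limma-voom they were -0.26, -0.27, -0.31 and -0.0029 in the same order. In all, 7 of 10 estimates were negative, where 48.5% of all genes had a negative one, and 3 were positive, where 51.5% of all genes were. In the authors' deposited table, the log2 fold change of NFKBIZ is -0.56 (standard error 0.77) and that of NFKBIA -0.47 (standard error 0.63), with a DESeq2 adjusted p of 0.9996 for each of the 10 genes.

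The sign of the inhibitor estimates depended on control cow 5, and the turn of NFKBIZ was lost when supplemented cow 6 was left out as well. Without control cow 5 alone the log2 fold changes were 0.35 ± 0.53 (SE) for NFKBIA, 0.20 ± 0.39 for NFKBIE, 0.48 ± 0.70 for NFKBIZ and 0.69 ± 0.59 for TNFAIP3. TNFAIP3 then averaged 77.9 ± 56.4 CPM in 5 control cows, against 252 ± 430 CPM in all 6 and 125 ± 78.6 CPM in supplemented cows (SD). NFKBIA averaged 423 ± 226 CPM in 5 control cows, against 752 ± 832 CPM in all 6 and 538 ± 334 CPM in supplemented cows (SD, n = 6). Supplemented cow 6 weighed on the subunits: without it RELA stood at -0.11 ± 0.14, NFKB1 at -0.00026 ± 0.11 and RELB at -0.13 ± 0.11, and NFKBIZ at -1.07 ± 0.85. With both cows left out, NFKBIA stood at 0.17, NFKBIE at 0.030, NFKBIZ at -0.025 and TNFAIP3 at 0.67. None of these passed (lowest edgeR adjusted p over all alternatives 0.799). Within the 5 supplemented and 3 control libraries that share the first index sequence (the barcode of a library), a group that holds control cow 5, the log2 fold changes were -1.19 for NFKBIA, -0.67 for NFKBIE, -1.36 for NFKBIZ and -1.92 for TNFAIP3. The other index holds 1 supplemented library, so no value was computed there.

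**Figure D2:**
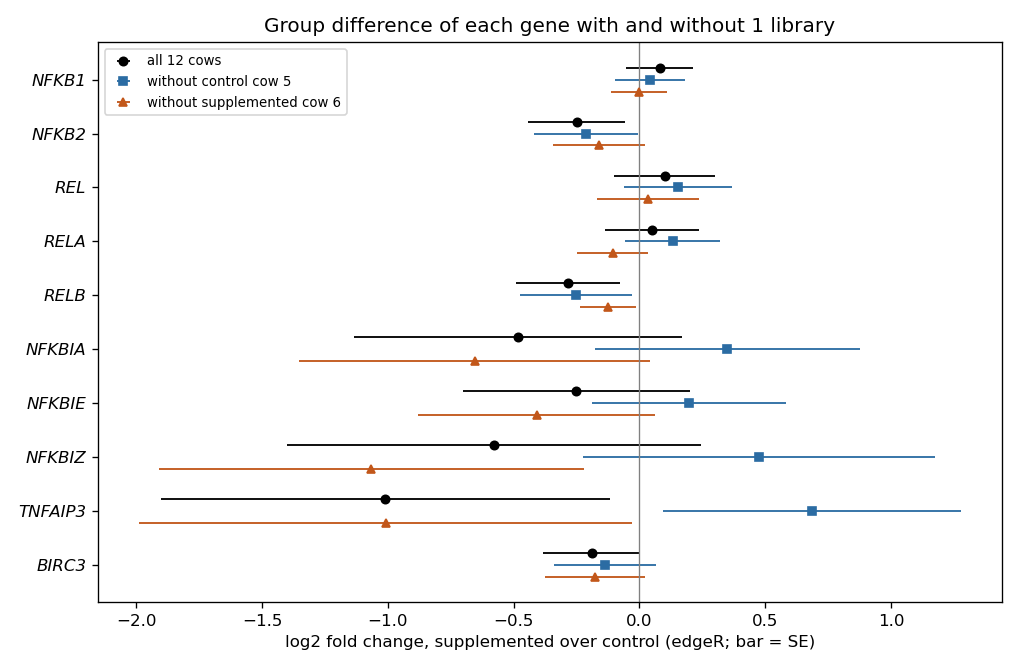
Log2 fold change of supplemented over control cows from edgeR for each gene, with bars of 1 SE, over all 12 cows and with 1 library left out. The 4 inhibitors move from negative (TNFAIP3 -1.01) to positive (TNFAIP3 0.69) without control cow 5, while NFKB2, RELB and BIRC3 stay negative in the 3 fits shown.

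Across the 12 cows the inhibitors varied together. The 6 pairs among NFKBIA, NFKBIE, NFKBIZ and TNFAIP3 had a Pearson r of 0.89 to 0.96 and a Spearman rho of 0.82 to 0.96 on the log2 CPM scale, with permutation p adjusted over 45 pairs from 0.00015 to 0.000975 for r and from 0.00045 to 0.0122 for rho. The smallest p that the 100000 permutations can give, 1e-05, was reached by NFKBIA with NFKBIE, NFKBIZ and TNFAIP3. The r of these 6 pairs was 0.84 to 0.96 within supplemented cows, 0.95 to 0.99 within control cows, 0.89 to 0.97 within the 8 libraries of the first index and 0.82 to 0.94 without supplemented cow 6 and control cow 5. With the 2 cows farthest from the median of the first gene left out, r was 0.79 to 0.94, and 1 of the 6 pairs, NFKBIE with TNFAIP3, no longer passed (r = 0.79, permutation adjusted p = 0.0572). Without control cow 5 alone, r was 0.82 to 0.94. The inhibitors thus varied together in supplemented cows as well as in controls.

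A second set was formed by NFKB2 and BIRC3, with r = 0.82 and rho = 0.82 (permutation adjusted p = 0.00765 and 0.0122). The pair held without the 2 farthest cows (r = 0.88, permutation adjusted p = 0.0117), and r was 0.64 within supplemented and 0.94 within control cows. NFKB2 with RELB gave r = 0.72 and rho = 0.80 (permutation adjusted p = 0.00765 and 0.0175), but it did not pass without supplemented cow 6 and control cow 3 (r = 0.60, permutation adjusted p = 0.193). Between the 2 sets, the r of NFKBIA was -0.05 with NFKB2 and -0.09 with BIRC3.

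The remaining calls rested on few cows. NFKB1 and RELB were opposed (r = -0.74, permutation adjusted p = 0.0387), but rho was -0.43, and r was -0.44 without supplemented cows 6 and 2, the farthest from the median. RELA followed NFKBIZ (r = 0.74, permutation adjusted p = 0.0243; rho = 0.64, permutation adjusted p = 0.128), with r = 0.55 without supplemented cow 6 and control cow 5. In all, 10 of 45 pairs passed by r, 9 positive and 1 negative, and 8 of these passed by rho as well. The share of pairs that pass among all genes was not computed, so these counts set the members apart from no others. REL had an r of 0.60 to 0.68 with the 4 inhibitors, none of which passed after adjustment.

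**Figure D3:**
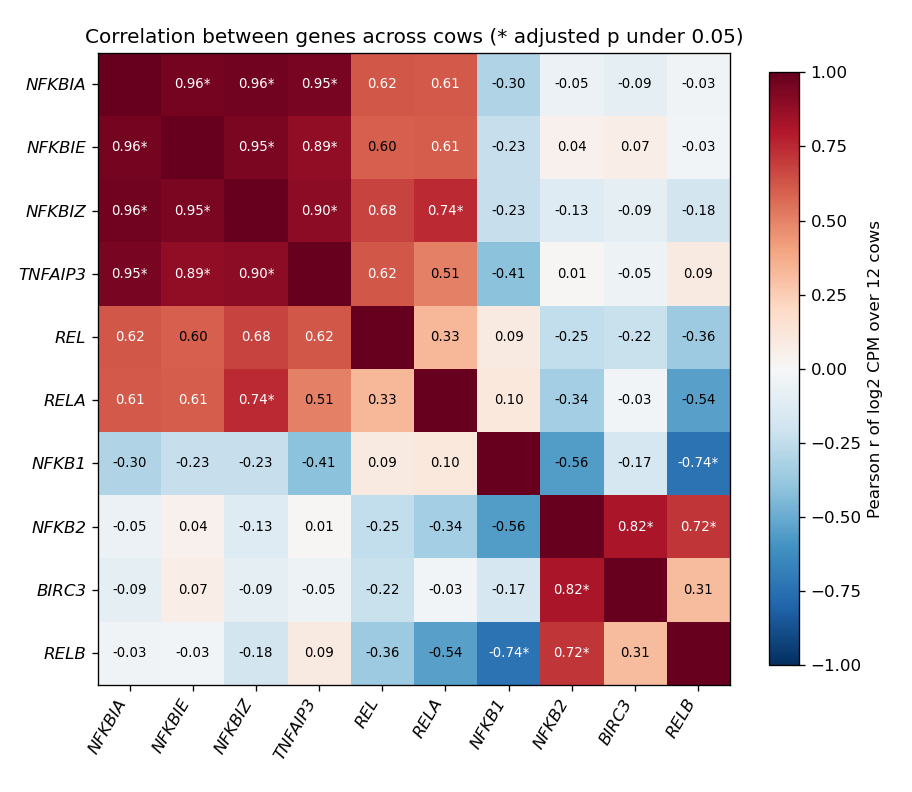
Pearson r of log2 CPM over 12 cows for each pair of genes, with an asterisk at an adjusted permutation p under 0.05. The 4 inhibitors form a block of r from 0.89 to 0.96. NFKB2 is correlated with BIRC3 (0.82) and with RELB (0.72), while the r of RELB with BIRC3 is 0.31.

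**Figure D4:**
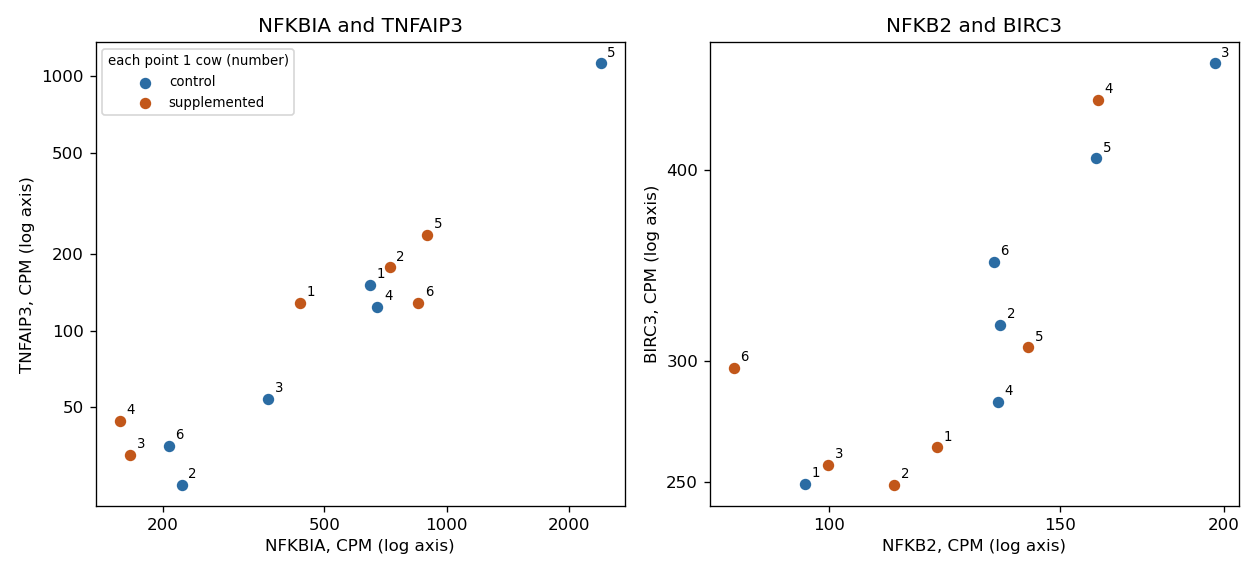
Left, TNFAIP3 against NFKBIA, and right, BIRC3 against NFKB2, both in CPM on log axes, with 1 point for each cow. Supplemented and control cows lie along the same course in both panels, control cow 5 at the upper end on the left (2399 and 1125 CPM) and control cow 3 on the right (197 and 470 CPM).

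The genes whose pattern was most like that of the members were sought among 9161 named genes of at least 5 CPM, with the 10 members themselves left out, over 12 libraries. They have no test, since they were picked for their r. TNFAIP3 was closest to ICAM1, an adhesion molecule (r = 0.97, rho = 0.96), then to IL1B (r = 0.95, rho = 0.86) and TNFSF9 (r = 0.95, rho = 0.92). NFKBIZ was closest to CDKN2AIP (r = 0.99, rho = 0.97), then to the kinase gene SGK1 (0.96 and 0.94) and the chemokine CXCL2 (0.96 and 0.90). Among genes other than members, PNRC1 led for both NFKBIA (r = 0.96) and NFKBIE (r = 0.95). The subunits had other neighbours: VAV1 for NFKB1 (r = 0.95), STK40 for RELA (0.97), CUL5 for REL (0.90), SIAH2 for RELB (0.95) and AHI1 for NFKB2 (0.87). Outside the members, the highest r of BIRC3 was 0.80 (AKIRIN1). For the mean of the 10 standardised profiles, the closest genes were the chemokines CCL4 (r = 0.92) and CCL3 (0.91), followed by CDKN2AIP, ROGDI, ICAM1, UBA7, FASLG, PNRC1, RNF19B and ATF3 (0.87 to 0.89). That mean mostly followed the inhibitors (r = 0.88 to 0.95), while its r was 0.05 with RELB and -0.28 with NFKB1.

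Markers of blood cell types moved with several of the genes. In bulk blood, fewer cells of a type and less RNA per cell cannot be told apart. The summed level of the 10 monocyte markers ran from 1390 to 9118 CPM in supplemented and from 1109 to 5997 CPM in control cows. For 10 B cell markers it ran from 844 to 5534 CPM and from 1603 to 5353 CPM, and for the 10 neutrophil markers found of 12 from 1001 to 98804 CPM and from 564 to 13483 CPM. The 6 platelet markers found of 8, which lack PF4 and PPBP, ran from 191 to 1085 CPM in supplemented cows and from 132 to 2826 CPM in controls. Control cow 5, the cow with the highest inhibitors, had the highest platelet sum of all cows and the lowest B cell sum of the control cows. Among control cows its monocyte, T cell, and natural killer and cytotoxic cell sums were the highest as well. Supplemented cow 6, the cow with the lowest RELB and NFKB2, had the highest neutrophil and the lowest B cell sum of all 12 cows.

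These relations were computed after the values had been seen, as 80 pairs of 10 genes and 8 marker lists on a log2 scale, of which 10 passed by r and 5 of these by rho. RELA was lower where B cell markers were higher (r = -0.92, rho = -0.87, permutation adjusted p = 0.00720 and 0.0392) and higher with monocyte markers (r = 0.77, rho = 0.82, permutation adjusted p = 0.0302 and 0.0414). NFKBIA was higher where the platelet sum was higher (r = 0.87, rho = 0.85, permutation adjusted p = 0.00840 and 0.0396), as did NFKBIE (r = 0.87, rho = 0.81, permutation adjusted p = 0.00840 and 0.0414). NFKBIZ was higher where the neutrophil sum was higher (r = 0.74, rho = 0.80, permutation adjusted p = 0.0397 and 0.0434). By r but not by rho, NFKBIZ (r = 0.87, permutation adjusted p = 0.0084) and TNFAIP3 (r = 0.80, permutation adjusted p = 0.0263) also passed with platelet markers. The other pairs that passed by r alone were RELA with neutrophil (r = 0.88) and with natural killer and cytotoxic cell markers (r = 0.77), and NFKBIZ with B cell markers (r = -0.73). With the 2 cows farthest from the median of the marker sum left out, r was -0.91 for RELA with B cell and 0.79 with monocyte markers, 0.78 and 0.85 for NFKBIA and NFKBIE with platelet markers, and 0.80 for NFKBIZ with neutrophil markers. None of the 80 pairs passed the adjustment with 10 cows. The share of all genes that pass with these marker lists was not computed. The part of cell makeup in the levels of the 10 genes was not tested further.

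The wider pathway was described by 6 lists with 109 gene names, of which 107 were found and 102 passed the count minimum. In edgeR 0 of 102 were called, 3 had an unadjusted p under 0.05 (2.94%, against 1.59% of all genes), and 53 were positive and 49 negative. Of these 3, CCL20 passed the count minimum only through control cow 5. The kinases, adaptors and other inhibitors lay close to 0: the median log2 fold change was 0.06 for 12 genes of the IkB kinase complex and its activators, -0.0052 for 19 adaptors and ubiquitin ligases and 0.05 for 20 further inhibitors, where the median over all genes was 0.01. MAP3K14 (NIK), the kinase of the second branch, averaged 134 ± 11.7 CPM in controls against 112 ± 18.7 CPM with the supplement (SD, 6 cows each), which gave -0.25 ± 0.13 (SE) on the log2 scale. MAP3K7 (TAK1), which activates the kinase complex, stood at 0.28 ± 0.14. TAB2, a partner of TAK1, stood at 0.27 ± 0.35 and RIPK2, the adaptor kinase of NOD receptors, at -0.10 ± 0.19. Among adaptors, MYD88 of the Toll-like and interleukin 1 receptors stood at 0.90 ± 0.58 and TIRAP, its bridging adaptor, at 0.47 ± 0.48, while TRAF5 stood at -0.27 ± 0.16. Without supplemented cow 6, TAB2 turned to -0.07, RIPK2 to 0.0011, MYD88 to -0.16 and TIRAP to -0.23. Without control cow 5, TAB2 stood at 0.41 and RIPK2 at -0.04. Among other inhibitors, PDLIM2 stood at 0.68 ± 0.47, ITCH at 0.55 ± 0.56, NFKBID at -0.30 ± 0.62 and COMMD1 at -0.09 ± 0.15. Without supplemented cow 6 these 4 stood at 0.10, 0.11, -0.13 and -0.04, and without control cow 5 at 0.85, 0.86, -0.18 and -0.16.

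Receptors, ligands and targets leaned on single cows. The 11 receptors had a median of 0.48, which became 0.02 without supplemented cow 6 and 1.07 without control cow 5. IL1RAP, the shared interleukin 1 receptor chain, stood at 2.36 ± 1.35 (SE) and IL18R1 at 1.48 ± 0.97. Both turned without supplemented cow 6, to -0.76 and -0.35. The B cell receptors for BAFF and APRIL, TNFRSF13C and TNFRSF13B, stood at -0.29 ± 0.63 and -0.17 ± 0.42, and without supplemented cow 6 at -0.05 and 0.0076. Without control cow 5 they stood at -0.49 and -0.30. The 10 ligands had a median of -0.19, which became 0.70 without control cow 5. The cytokine IL18 stood at 2.99 ± 1.22 with all cows and at -0.14 without supplemented cow 6, and TNFSF13 (APRIL) at 0.45 ± 0.54 and 0.27. Without control cow 5, TNFSF13 stood at 0.69. IL1A, an inducer of the pathway, stood at -2.31 ± 1.59 with all cows and at 0.85 without control cow 5.

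Most target genes peaked in 1 of 2 cows. Of 32 targets tested, 18 were highest in control cow 5 and 12 in supplemented cow 6, where 8.16% and 25.3% of all genes tested were highest. With all cows 13 of 32 targets were positive and 19 negative (median -0.19). Without control cow 5 the count was 28 of 31 positive (median 0.57), and without supplemented cow 6 it was 4 of 32 (median -0.59). The median over all genes was 0.017 and -0.0049 in these fits. The share of all genes that were positive in them was not computed. TNF, which both induces and is induced by NF-kB, ranged from 6.18 to 37.0 CPM in supplemented cows (median 12.7 CPM) and from 6.17 to 265 CPM in controls (median 12.04 CPM). IL1B ranged from 12.8 to 258 CPM (median 135 CPM) and from 7.73 to 1697 CPM (median 90.9 CPM), and the neutrophil chemokine CXCL8 from 10.3 to 299 CPM (median 99.0 CPM) and from 14.9 to 534 CPM (median 40.3 CPM). The control maximum of these 3 genes was again cow 5. The chemokine CCL4 stood at -1.71 ± 1.0 (SE) and at 0.35 without control cow 5, whereas SOD2 and the protease MMP9 stood at 2.60 ± 1.24 and 2.86 ± 1.98 and at -0.36 and -2.84 without supplemented cow 6. The 3 genes under an unadjusted p of 0.05 were IL18, CCL20 and TAX1BP1, the last 2 named after their values were seen. TAX1BP1, an adaptor of A20, stood at 0.44 ± 0.19 with all cows and at 0.26 without supplemented cow 6, while CCL20, a chemokine, stood at -3.68 ± 1.47. CCL20 was at 16.6 CPM in control cow 5 and at most at 0.584 CPM in the other 11 cows. It passed the count minimum only through control cow 5. Without that cow it was not tested, which left 31 targets.

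**Figure D5:**
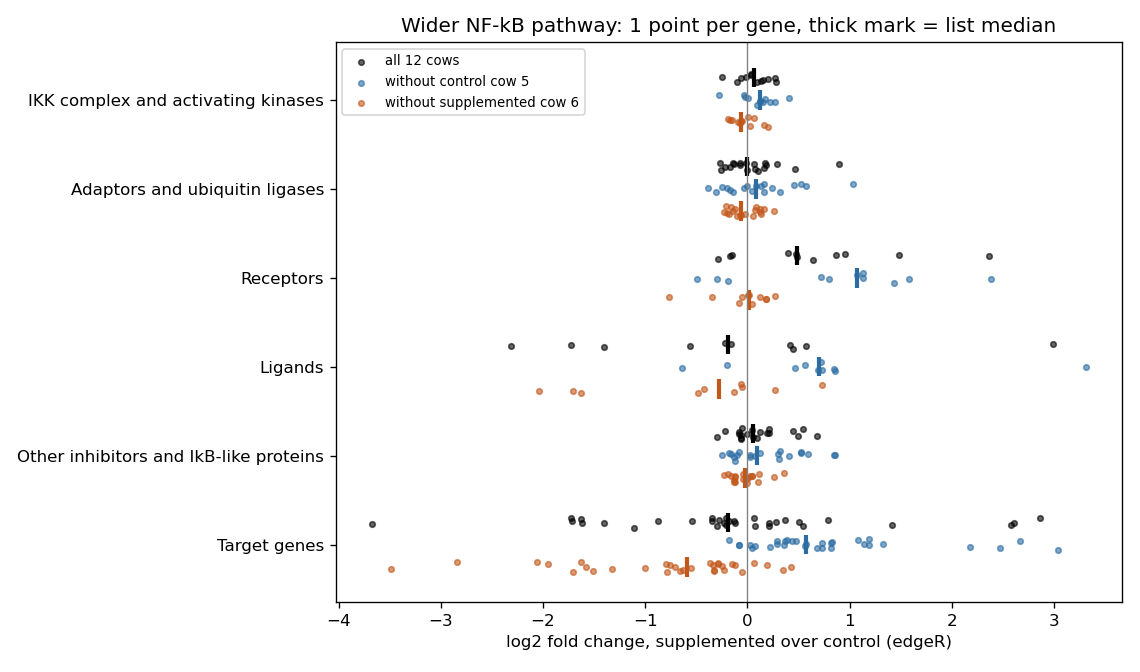
Log2 fold change of supplemented over control cows for the tested genes of 6 pathway lists (1 point for each gene, thick mark at the list median), over all 12 cows and with 1 library left out. The median of the target genes lies at -0.19 with all cows, at 0.57 without control cow 5 and at -0.59 without supplemented cow 6.

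The same cows had determinations of day 7 with no unit stated: glutathione peroxidase (GSHpx) and superoxide dismutase activity, AC, TBARS (a measure of lipid peroxidation) and the deposited oxidative index OSi. Of 50 pairs of a gene and a determination, 0 passed by r or by rho (lowest permutation adjusted p 0.630 for r and 0.177 for rho), and 2 by r and 5 by rho had an unadjusted p under 0.05. The lowest p by r belonged to NFKBIA with GSHpx, which was lower where NFKBIA was higher (r = -0.63, rho = -0.77, unadjusted permutation p = 0.0271 and 0.00496). This pair had r = -0.75 within supplemented and -0.50 within control cows, and r = -0.60 without the 2 cows farthest from the median of GSHpx. NFKBIZ with GSHpx gave r = -0.61 and rho = -0.72 (unadjusted permutation p = 0.0309 and 0.0106). The r of RELB with TBARS was -0.38, while its rho was -0.75 (unadjusted permutation p = 0.223 and 0.00714).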

How the data were processed

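RNA of jugular blood kept in RNAlater was depleted of haemoglobin transcripts and sequenced as paired reads, per the labels' protocols. Per the submitters' processing notes, the build was ARS-UCD1.2 and the tools included STAR, FastQC, DESeq2 and featureCounts. No source used here gives their versions, the annotation or the strand setting, so overlapping genes and the paralogs BIRC2 and BIRC3 may share reads. Raw gene counts were used as deposited. The authors' DESeq2 table holds, per its header, the log2 fold change with its standard error. Raw and adjusted p-values were deposited beside them. A deposited sequencing summary gives index sequences and a mean quality score for each library. The biochemical determinations were deposited with no unit.

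Groups follow the treatment label, and cow numbers only name cows. Genes with a mean count of at least 10 over 12 libraries were tested with edgeR's quasi-likelihood test (TMM, robust, two-sided, Benjamini-Hochberg over 11990 genes, threshold 0.05). The step was also run on simulated counts, with an outcome not reported here. Those counts were drawn gene by gene and hold no cow made extreme for many genes at once. SE is the log2 fold change over the square root of F. CPM were scaled by TMM, and a prior count of 2 was added before taking log2. Correlations used 100000 two-sided permutations (10000 where 2 cows were left out), adjusted within each family. Counts carry counting error besides the spread between cows. The members and gene lists were chosen with earlier results of these data known. Named were all members, of each pathway list the 2 genes with the highest and the 2 with the lowest log2 fold change of at least 5 CPM, and TNF, IL1B and CXCL8. The result of 1 gene under this rule is not reported here. Of 2 rows named CD40LG the one with more counts was used. Levels are not compared between genes, since no transcript lengths were used here. Software was edgeR 4.0.16, DESeq2 1.42.0 and limma 3.58.1 (R 4.3.3), and pandas 2.3.3, scipy 1.17.1 and numpy 2.4.6 (Python 3.11.15).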

Additional observations from a re-analysis of the deposited data

Results flagged for a closer look

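In groups of 6 cows, 86 sets of values were examined for a cow far from the others of its group (a gap to the nearest cow, relative to the group's range, above Dixon's critical value for 6), and 28 had one. Chance flags about 1 in 20 groups, but that rate is no yardstick here. The values share cows, and most pathway genes among them were named for the highest or lowest log2 fold change of their list, a choice that favours genes with 1 extreme cow. Of the 28, 10 were the high value of control cow 5 and 11 a value of supplemented cow 6.

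Control cow 5 stood apart for NFKBIA (2399 CPM, next control cow 676 CPM), NFKBIE (228 and 95.0 CPM), NFKBIZ (1228 and 381 CPM) and TNFAIP3 (1125 and 151 CPM). The same cow stood apart for TNF (265 and 16.6 CPM), IL1A (160 and 13.2 CPM), IL1B (1697 and 193 CPM), CXCL8 (534 and 138 CPM), CCL4 (202 and 14.4 CPM) and the sum of platelet markers (2826 and 830 CPM).

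Supplemented cow 6 stood apart for MYD88 (1380 CPM, next supplemented cow 261 CPM), TIRAP (75.6 and 26.01 CPM), IL1RAP (200.4 and 7.54 CPM), IL18R1 (100.4 and 12.6 CPM), IL18 (141 and 5.47 CPM), PDLIM2 (90.1 and 33.1 CPM), MMP9 (1746 and 11.1 CPM) and SOD2 (4925 and 277 CPM), and, as the lowest cow, for RIPK2 (26.5 and 39.2 CPM). Its sums of neutrophil and immature granulocyte markers were 98804 and 1257 CPM, against 4997 and 11.6 CPM in the next supplemented cow. RELB was lowest in this cow as well, at 20.9 CPM, but was not flagged.

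Other single values were BIRC3 in supplemented cow 4 (445 and 306 CPM), IL1A (25.7 and 5.62 CPM), TNF (37.0 and 17.6 CPM) and the sum of erythroid markers (384 and 144 CPM) in supplemented cow 5, and IL1RAP (28.4 and 7.85 CPM), MMP9 (208 and 22.7 CPM) and immature granulocyte markers (92.9 and 15.3 CPM) in control cow 4.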

How the results depend on the processing

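The 10 log2 fold changes were computed under 22 alternatives, and 204 of 220 values kept their sign and none passed (lowest edgeR adjusted p 0.799). The signs of NFKB2, RELB and BIRC3 held in each of the 22. With 1 cow left out the range was -0.00026 to 0.14 for NFKB1, -0.11 to 0.13 for RELA, -0.68 to 0.35 for NFKBIA, -0.50 to 0.20 for NFKBIE, -1.07 to 0.48 for NFKBIZ and -1.30 to 0.69 for TNFAIP3. Signs also turned with no scaling factor (NFKB1 -0.0079, RELA -0.050), with upper-quartile scaling (RELA -0.0016), with the index as a covariate (REL -0.0055) and within the first index (RELA -0.094). Without both supplemented cow 6 and control cow 5 they turned for NFKB1 (-0.046), RELA (-0.034), NFKBIA (0.17), NFKBIE (0.030) and TNFAIP3 (0.67). NFKBIZ stayed negative there (-0.025). In limma-voom TNFAIP3 stood at -0.0029. The cause of these turns was not tested beyond the omissions. DESeq2 called 2 genes of all, neither of them a member, and the other fits 0, with 0 to 0 when 1 cow was left out. The number of correlated pairs called was 10, and 6 without the 2 farthest cows. No paired analysis was possible because the labels carry cow numbers that the groups do not share. REL had the fewest counts of the members, 103 to 411 per library, so its values carry the most counting error. Beyond that, precision is limited by 6 cows a group.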
